A study of Rattus norvegicus with 12 samples.

Results

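Sesn2, Phgdh, Psph, Lars1 and Stc2 are 5 genes linked to the transcription factor ATF4, to the synthesis of serine and to the use of leucine. They were matched by gene symbol and Ensembl identifier to the table of read counts, and all 5 of 5 were found among its 20842 genes and passed the filter on low counts. The 5 genes were taken from a published list of genes that differed between VAMP7KO and WT cells in these same libraries. The difference between VAMP7KO and WT is therefore what chose them, and it is given here as a description without a test.

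RNA was sequenced from Normal Rat Kidney (NRK) cells of 3 genotypes, WT, VAMP7KO and ATG5KO, with 4 libraries each and 12 in all. VAMP7 is a vesicle SNARE of late endosomes and lysosomes, and ATG5 is needed to make autophagosomes. Both knockout lines were made from the WT line by CRISPR/Cas9 and grown up from single sorted cells, so a feature of the founder cell cannot be told apart from the deletion. All cells were grown in complete growth medium without treatment, and each library came from 1 dish. The study describes the 4 libraries of a genotype as independent experiments.

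ATF4 is the main effector of the integrated stress response. Phosphorylation of the translation factor eIF2α lowers protein synthesis in general but raises translation of the Atf4 mRNA, and ATF4 then turns on genes for amino acid synthesis and uptake, for aminoacyl-tRNA synthetases and for stress regulators. Phgdh and Psph encode the first and the last enzyme of the pathway that makes serine from a glycolytic intermediate. Sesn2 encodes a leucine-binding inhibitor of mTORC1, the kinase complex that drives growth, Lars1 encodes leucyl-tRNA synthetase, and Stc2 encodes a secreted glycoprotein that inhibits pappalysins, the proteases that free insulin-like growth factors from their binding proteins.

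ATF4 binds DNA together with C/EBP proteins at an element with the core TGATGNAA. The promoters in RefSeq (GRCr8), of 250 bases before and 50 bases after the start site, were searched for it on both strands, where it also reads TTNCATCA. It was present in 1332 of 33469 promoters (3.98%), and in none of the 5 genes. Inhbe, the inhibin beta E gene, had 1 match that began at position -228 from its start site. Its levels followed those of Psph and Lars1 closely (r of 0.979 and 0.969 over the 12 libraries). The promoters of the other genes most like the 5 were not looked up, so nothing is read from this match.

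The levels of Psph followed those of Inhbe (r of 0.979) and of Sesn2 (r of 0.927), while Inhbe was not among the 3 genes most like Sesn2. Of these windows only that of Inhbe held these letters. For this reason the 250 bases before the start sites of Psph, Sesn2 and Inhbe are shown. They are written 5′ to 3′ on the strand of the gene, with the match in capitals.
Psph, chr12:32526841-32527090, plus strand: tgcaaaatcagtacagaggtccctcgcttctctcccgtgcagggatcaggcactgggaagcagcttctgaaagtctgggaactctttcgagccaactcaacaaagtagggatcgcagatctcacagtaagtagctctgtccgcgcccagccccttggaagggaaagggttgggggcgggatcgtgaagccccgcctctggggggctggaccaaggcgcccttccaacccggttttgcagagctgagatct
Sesn2, chr5:150005256-150005505, minus strand: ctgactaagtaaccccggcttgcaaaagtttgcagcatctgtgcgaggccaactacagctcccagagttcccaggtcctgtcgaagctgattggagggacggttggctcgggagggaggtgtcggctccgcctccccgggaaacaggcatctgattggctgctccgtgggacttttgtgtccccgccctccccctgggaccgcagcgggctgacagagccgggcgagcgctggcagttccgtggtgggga
Inhbe, chr7:65064520-65064769, minus strand: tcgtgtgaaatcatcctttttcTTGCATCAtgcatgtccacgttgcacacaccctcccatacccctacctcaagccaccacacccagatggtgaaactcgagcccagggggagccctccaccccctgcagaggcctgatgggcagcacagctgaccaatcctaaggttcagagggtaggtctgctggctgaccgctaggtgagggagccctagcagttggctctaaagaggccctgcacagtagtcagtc
The share of G and C was 58.4% in the Psph window, 64.0% in that of Sesn2 and 57.6% in that of Inhbe. A match is only a match of letters, and its absence from this window says nothing about binding elsewhere.

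The libraries held 21090858 to 31525111 counts, of which the 5 genes had between 52 and 10430 counts each. Vamp7 itself stood at 108.7 to 115.8 CPM in WT, 125.1 to 130 CPM in ATG5KO and 41.6 to 51.9 CPM in VAMP7KO, where CPM is the count scaled to a common library size after adjustment by the trimmed mean of M-values (TMM). Atg5 was not analysed here. The libraries of every genotype fell into 2 sets, replicates 1 and 2 against replicates 3 and 4, which the labels do not mention. Deviations from the genotype mean correlated positively within a set (r of 0.529 to 0.681) and negatively between sets (r of -0.682 to -0.543). The negative values follow from the positive ones, because deviations from a mean cancel out within a genotype. The differences of the 5 genes below are therefore also given by set. NRK cells are labelled epithelial, while the study's text calls them fibroblastic in some places and epithelial in another. Markers could be named only where they stood on a list of genes changed in these data, so a shift in their sums is in part built into the choice. Of 19 kidney epithelial markers 6 could be named, with summed levels of 815 to 1206 CPM in WT, 463 to 572 CPM in VAMP7KO and 563 to 816 CPM in ATG5KO. Most of this sum was Krt8 (mean 777, 502 and 688 CPM in WT, VAMP7KO and ATG5KO) and Aqp1 (248, 5.78 and 19.7 CPM), and the markers did not all move one way, as Lrp2 and Dsp had log2 fold changes of 2.18 and 1.16 in ATG5KO against WT. Of 18 mesenchymal markers 10 could be named, with summed levels of 598 to 1531, 1232 to 3356 and 2245 to 4041 CPM. Cdh16 had a mean of 1.21 CPM in WT. Slc12a1 had no count in VAMP7KO, Fap had none in either knockout and Postn had none in ATG5KO. In such bulk RNA, fewer cells of a type and less RNA per cell cannot be told apart, and the part of these marker shifts in the results below was not tested.

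The enzyme genes of serine synthesis were both higher in VAMP7KO than in WT. Phgdh, the entry step of the pathway, stood at 15.4, 18.6, 36.2 and 37.1 CPM in WT replicates 1 to 4, at 65.1, 64.0, 49.0 and 49.7 CPM in VAMP7KO and at 22.7, 33.4, 69.2 and 74.3 CPM in ATG5KO. The VAMP7KO libraries lay above all WT libraries, whereas the ATG5KO libraries ran from within the WT range to above every VAMP7KO library. The mean was 26.8 ± 11.4 CPM in WT, 56.9 ± 8.79 CPM in VAMP7KO and 49.9 ± 25.7 CPM in ATG5KO (SD, n = 4). Psph, the phosphatase that releases serine, stood at 49.1, 47.6, 66.8 and 69.6 CPM in WT, at 108.0, 108.4, 78.2 and 81.6 CPM in VAMP7KO and at 35.7, 46.3, 59.0 and 56.9 CPM in ATG5KO. Here too VAMP7KO lay above WT without overlap, while ATG5KO overlapped WT and was the lowest genotype at each replicate number. The mean was 58.3 ± 11.5 CPM in WT, 94.1 ± 16.4 CPM in VAMP7KO and 49.5 ± 10.7 CPM in ATG5KO.

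The pair of genes tied to leucine showed the same order of genotype means as Psph, but not as Phgdh. Sesn2 stood at 42.7, 47.6, 87.3 and 85.8 CPM in WT, at 115.2, 104.2, 102.7 and 102.3 CPM in VAMP7KO and at 31.7, 29.3, 53.4 and 50.1 CPM in ATG5KO. VAMP7KO was above every WT and every ATG5KO library, and its 4 values were the most even of the 3 genotypes, with a coefficient of variation of 5.78% against 36.5% in WT. The mean was 65.8 ± 24.0 CPM in WT, 106.1 ± 6.13 CPM in VAMP7KO and 41.1 ± 12.4 CPM in ATG5KO. Lars1 stood at 152.4, 153.1, 206.8 and 202.9 CPM in WT, at 348.5, 319.9, 268.5 and 275.7 CPM in VAMP7KO and at 121.6, 130.8, 182.8 and 190.2 CPM in ATG5KO. The VAMP7KO libraries again lay above all others, and ATG5KO was below WT at each replicate number although the groups overlapped. The mean was 178.8 ± 30.1 CPM in WT, 303.2 ± 37.8 CPM in VAMP7KO and 156.4 ± 35.2 CPM in ATG5KO.

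Stc2, the secreted pappalysin inhibitor, was the exception among the 5. It stood at 10.5, 9.45, 11.8 and 13.1 CPM in WT, at 3.81, 4.25, 2.46 and 2.47 CPM in VAMP7KO and at 6.09, 6.42, 3.23 and 2.40 CPM in ATG5KO. Both knockouts lay below every WT library, and they overlapped each other. The mean was 11.2 ± 1.57 CPM in WT, 3.25 ± 0.924 CPM in VAMP7KO and 4.53 ± 2.02 CPM in ATG5KO.

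**Figure D1:**
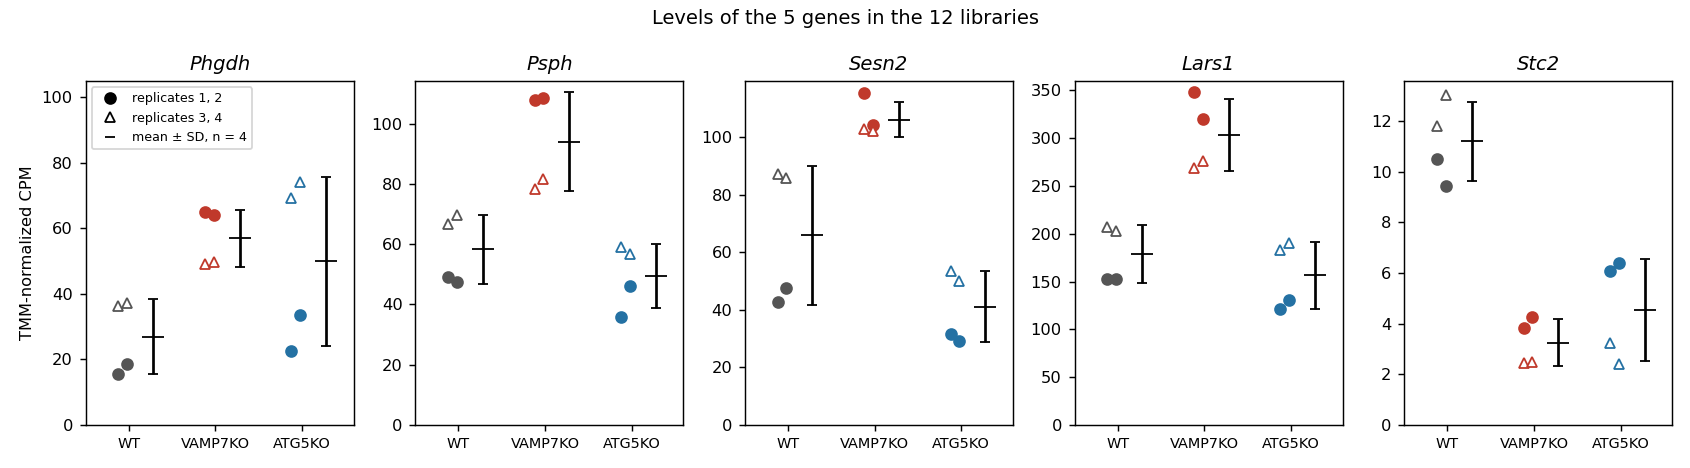
TMM-normalized CPM (linear axis from 0) of the 5 genes in each of the 12 libraries, filled circles for replicates 1 and 2, open triangles for replicates 3 and 4, bars for mean ± SD (n = 4). VAMP7KO lies above WT for Phgdh, Psph, Sesn2 and Lars1 and below it for Stc2, and the WT and ATG5KO triangles sit above their circles for the first 4 genes.

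Between VAMP7KO and WT, 4 of the 5 genes were higher and 1 was lower, and for all 5 the VAMP7KO and WT libraries did not overlap, as was true of 15.5% of the 13141 genes tested (6.8% with VAMP7KO higher and 8.74% with it lower). Since this contrast chose the genes, nothing is read from that count. The fitted log2 fold change was 1.26 (SE 0.324) for Phgdh, a 2.39-fold higher level. It was 0.72 (SE 0.189) for Psph, 0.78 (SE 0.189) for Sesn2 and 0.79 (SE 0.158) for Lars1, or 1.65-fold, 1.71-fold and 1.73-fold. Stc2 had a log2 fold change of -1.86 (SE 0.28), which left 27.5% of the WT level. The median log2 fold change of the 5 genes was 0.78, against 0.00 for all genes tested. The choice of the genes favoured such a gap, so nothing is read from it either.

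The size of these differences depended on the replicate set. In replicates 1 and 2 Phgdh was 3.80-fold higher in VAMP7KO than in WT, Sesn2 2.43-fold, Psph 2.24-fold and Lars1 2.19-fold. In replicates 3 and 4 the corresponding values were 1.35-fold, 1.18-fold, 1.17-fold and 1.33-fold, so every gene kept its direction with a smaller fold. Stc2 went the other way, with a log2 fold change of -1.31 (SE 0.158) in replicates 1 and 2 and -2.33 (SE 0.167) in replicates 3 and 4.

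The difference of the VAMP7KO effect between the sets was tested as an interaction of genotype and set. The published list rested on the average over the 4 replicates, which the difference between sets does not enter. However, the 5 genes were picked with earlier results of these data known, and the sets were first seen in these data. The set differences can therefore not be held apart from the choice. Each set also occurs only once. The p of this test rests on the spread between the 2 libraries of a genotype and set. It does not measure how far a genotype effect varies from set to set. Psph, Lars1 and Sesn2 also moved together (r of 0.927 to 0.983 over the 12 libraries), so their results below are not separate. All 5 genes passed, each in the negative direction, where 16.5% of all genes tested passed and 7.5% did so in the negative direction. The log2 difference (replicates 3 and 4 minus replicates 1 and 2) was -1.50 (SE 0.181) for Phgdh, with an edgeR adjusted p (Benjamini-Hochberg) of 1.59e-05. By the same edgeR test it was -0.93 (SE 0.129, adjusted p = 6.32e-05) for Psph, -1.04 (SE 0.11, adjusted p = 4.29e-06) for Sesn2, -0.72 (SE 0.0954, adjusted p = 4.16e-05) for Lars1 and -1.02 (SE 0.234, adjusted p = 0.00563) for Stc2. For the 4 genes that were higher a negative value means a smaller excess, and for Stc2 a deeper deficit, in replicates 3 and 4.

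**Figure D2:**
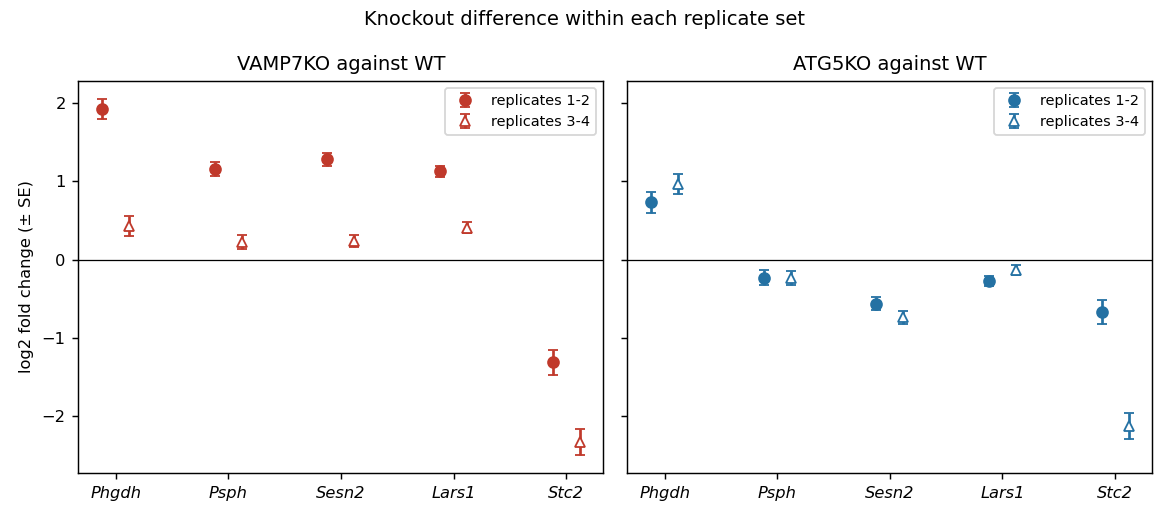
Log2 fold change ± SE against WT of the 5 genes for VAMP7KO (left) and ATG5KO (right), with replicates 1 and 2 filled and replicates 3 and 4 open. The excess in VAMP7KO falls from 3.80-fold to 1.35-fold for Phgdh between the sets, while in ATG5KO only the Stc2 values stand far apart.

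WT and ATG5KO on one side and VAMP7KO on the other shifted differently between the sets. In WT the level in replicates 3 and 4 was above that in replicates 1 and 2 by a log2 value of 1.11 (SE 0.133) for Phgdh, 0.94 (SE 0.0794) for Sesn2, 0.50 (SE 0.0922) for Psph and 0.42 (SE 0.0678) for Lars1. ATG5KO shifted the same way, by 1.34 (SE 0.127) for Phgdh, 0.77 (SE 0.0835) for Sesn2, 0.49 (SE 0.0946) for Psph and 0.56 (SE 0.0685) for Lars1. In VAMP7KO the same shift was -0.39 (SE 0.123), -0.10 (SE 0.077), -0.44 (SE 0.0902) and -0.30 (SE 0.0671), so the 2 sets of Sesn2 were close to each other in this genotype and the other genes were lower in replicates 3 and 4. Stc2 shifted by 0.32 (SE 0.14) in WT, -0.70 (SE 0.188) in VAMP7KO and -1.14 (SE 0.176) in ATG5KO. The summed epithelial markers moved in these directions as well, from 815 and 884 CPM to 1205 and 1206 CPM in WT, from 563 and 668 CPM to 798 and 816 CPM in ATG5KO, and from 527 and 572 CPM to 463 and 473 CPM in VAMP7KO. The single epithelial markers did not all follow their sum. In the edgeR interaction test for VAMP7KO, Krt8 was negative (-0.58, adjusted p = 0.00263) and Aqp1 positive (1.62, adjusted p = 0.000118). The other 3 of 5 epithelial markers on the VAMP7KO list did not pass. The summed mesenchymal markers were lower in replicates 3 and 4 of every genotype. The part of these shifts in the 5 genes was not tested.

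**Figure D3:**
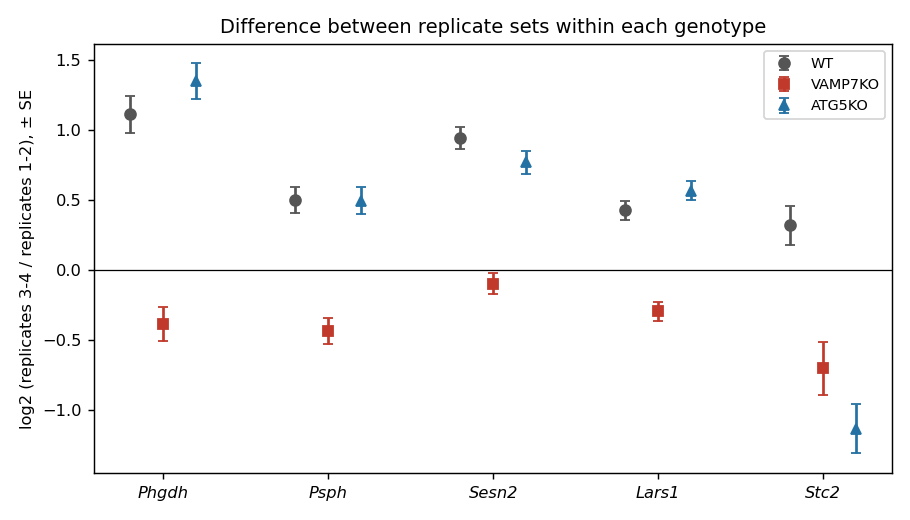
Log2 ratio of replicates 3 and 4 over replicates 1 and 2 (± SE) of the 5 genes within WT, VAMP7KO and ATG5KO. Phgdh, Psph, Sesn2 and Lars1 lie above 0 in WT and ATG5KO and at or below 0 in VAMP7KO.

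The comparison of ATG5KO with WT is not known to have chosen the genes, although it shares the WT libraries with the one that did. The published list for ATG5KO was read only in part, so Stc2 may be on it. Of the 5 genes, 3 passed edgeR's quasi-likelihood test at an adjusted p under 0.05, where 46.3% of all genes tested passed (23.6% higher and 22.7% lower in ATG5KO). A count of 3 in 5 is thus near the background. The groups of 1 gene, Stc2, did not overlap, as in 28.2% of all genes and in 13.3% with ATG5KO lower. The median log2 fold change of the 5 genes was -0.24, against 0.01 for all genes.

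Stc2 fell to 37.8% of the WT level in ATG5KO, with a log2 fold change of -1.40 (SE 0.276, adjusted p = 0.00234 in edgeR with Benjamini-Hochberg adjustment). It was lower in 4 of 4 replicate numbers, and the 2-sided exact permutation test gave p = 0.0286, the smallest that 4 against 4 allow. With replicates summed within each set the call was lost (-1.41, edgeR adjusted p = 0.0597). Within the sets the log2 fold change was -0.67 (SE 0.15) and -2.12 (SE 0.165). This difference between sets also passed the interaction test, at -1.45 (SE 0.225, edgeR adjusted p = 0.00011), and Stc2 was the 1 gene of the 5 to do so for ATG5KO, where 28.9% of all genes passed.

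Sesn2 fell in ATG5KO to 63.1% of the WT level, opposite in sign to its difference in VAMP7KO. Its log2 fold change was -0.67 (SE 0.189, adjusted p = 0.0163 in edgeR with Benjamini-Hochberg adjustment), and it was lower in 4 of 4 replicate numbers, although the groups overlapped over the sets and the exact permutation p was 0.171. Within the sets the log2 fold change was -0.57 (SE 0.0833) in replicates 1 and 2 and -0.74 (SE 0.0794) in replicates 3 and 4. Without the replicate block the edgeR adjusted p was 0.0879, and the call was also lost without WT replicate 3 (0.0633), WT replicate 4 (0.0641), ATG5KO replicate 1 (0.0514) or ATG5KO replicate 2 (0.0569). Over the 10 other settings the adjusted p ran from 1.76e-14 to 0.149. The lowest was on replicates 3 and 4 alone, where only the spread within 1 set enters.

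Phgdh rose in ATG5KO, 1.82-fold, whereas Psph did not pass the test. The log2 fold change was 0.86 (SE 0.317, adjusted p = 0.047 in edgeR with Benjamini-Hochberg adjustment). The 4 of 4 replicate numbers showed this direction, with values of 0.73 (SE 0.135) and 0.97 (SE 0.124) within the sets, but the groups overlapped and the exact permutation p was 0.171. The edgeR adjusted p was 0.127 without the replicate block, and ran from 2.88e-16 (replicates 3 and 4 alone) to 0.207 (summed sets) over the 10 other settings. It was 0.117, 0.113, 0.0652 and 0.071 without WT replicates 1 to 4 in turn, 0.0514 without VAMP7KO replicate 2, and 0.0571, 0.162 and 0.169 without ATG5KO replicates 2, 3 and 4.

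Psph and Lars1 did not pass. Their log2 fold changes were -0.24 (SE 0.188, adjusted p = 0.324) and -0.20 (SE 0.157, adjusted p = 0.325) in edgeR with Benjamini-Hochberg adjustment, both lower in 4 of 4 replicate numbers. Fitted on replicates 1 and 2 alone both passed, with edgeR adjusted p of 0.0491 and 0.00636, and on replicates 3 and 4 alone likewise, with 0.000655 and 0.0104. In those smaller fits 47.1% and 65.8% of all genes passed, and with them all 5 genes. Only the spread within 1 set enters the p of such a fit. The differences within a set were small, at -0.23 (SE 0.0946) and -0.23 (SE 0.0921) for Psph and -0.27 (SE 0.0684) and -0.14 (SE 0.0677) for Lars1.

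The knockouts were also set against each other, as a description, since the VAMP7KO libraries helped to choose the genes. Psph, Sesn2 and Lars1 were higher in VAMP7KO than in ATG5KO without overlap, a pattern of 13.1% of all genes in that direction. Their log2 differences were 0.96 (SE 0.19), 1.44 (SE 0.193) and 0.99 (SE 0.159). Phgdh had no fixed order: it was higher in VAMP7KO in replicates 1 and 2, by 1.19 (SE 0.128), and lower in replicates 3 and 4, at -0.54 (SE 0.123). Without VAMP7KO replicate 1 its overall log2 difference of 0.39 (SE 0.322) came to 0.03. Stc2 was lower in VAMP7KO in 3 of 4 replicate numbers, at -0.46 (SE 0.283), with values of -0.64 (SE 0.167) and -0.21 (SE 0.199) in the sets.

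Psph, Lars1 and Sesn2 moved together over the 12 libraries, which share their genotypes and replicate sets. On log2 CPM, Pearson's r was 0.983 for Psph and Lars1, 0.945 for Sesn2 and Lars1 and 0.927 for Psph and Sesn2. Phgdh followed them less closely, with r of 0.677 to Lars1, 0.67 to Psph and 0.545 to Sesn2. Stc2 had r of -0.723 to Phgdh and of -0.463 to -0.265 to the other genes.

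**Figure D4:**
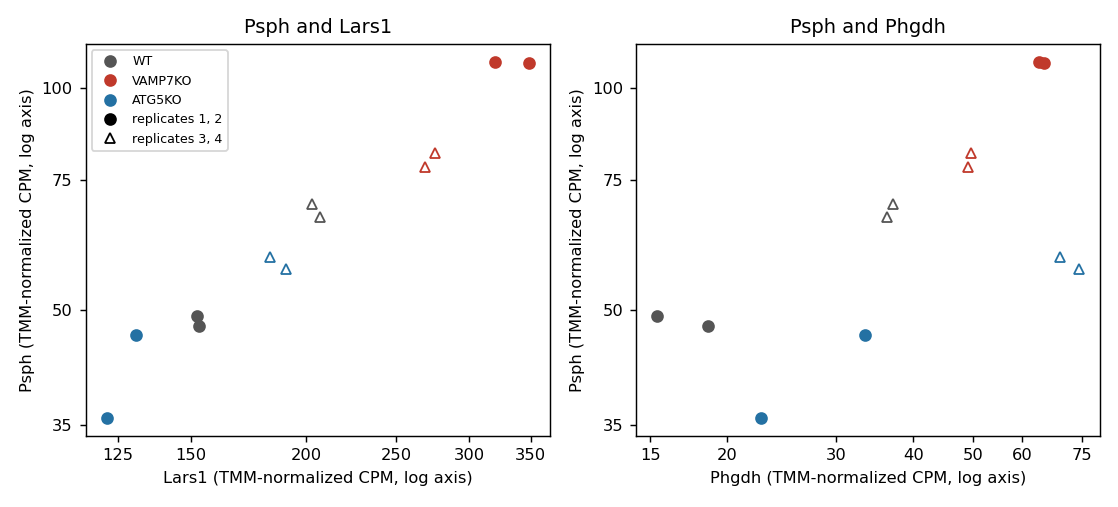
Psph against Lars1 (left) and against Phgdh (right), TMM-normalized CPM on log axes, 1 point a library, coloured by genotype, filled for replicates 1 and 2 and open for replicates 3 and 4. Psph and Lars1 lie along a line (r = 0.983, 12 libraries), while the ATG5KO points of replicates 3 and 4 leave it for Phgdh (r = 0.67).

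Among 635 other genes with a known symbol and a mean of at least 10 CPM, the 3 most like each gene were ranked by r over the 12 libraries. These genes all come from lists of genes that differed in these data. For Psph they were Lars1 (r = 0.983), Inhbe (0.979) and Sesn2 (0.927), and for Lars1 they were Psph, Inhbe (0.969) and Cstf2 (0.953). Inhbe stood at 17.1, 17.4, 25.6 and 25.5 CPM in WT, at 85.6, 83.0, 34.2 and 37.6 CPM in VAMP7KO and at 7.29, 10.8, 24.6 and 23.0 CPM in ATG5KO. VAMP7KO replicates 1 and 2 were the highest and all VAMP7KO libraries were above the rest, as for Psph and Lars1. For Sesn2 the nearest were Lars1 (0.945), Odc1 (0.941), the rate-limiting enzyme of polyamine synthesis, and Rassf9 (0.929). For Phgdh they were Pde11a (0.917), a phosphodiesterase, Ifit2 (0.883), an interferon-induced gene, and Nudcd1 (0.881), and for Stc2 Slc45a4 (0.932), Nck2 (0.93) and Slc26a11 (0.919).

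The other genes of these pathways were taken from lists of known members. Symbols were available only for genes on lists of changed genes, so 24 of 171 listed genes could be named, 23 were tested, and most of each pathway, Atf4, Asns and Psat1 among them, was not analysed here. Leaving out the 5 genes, 12 were found on the VAMP7KO list only, although Rragd may also be on the unread part of the ATG5KO list. In ATG5KO against WT, 3 of these 12 rose, 4 fell and 5 did not pass (median log2 fold change -0.23), against 46.3% called among all genes.

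On the ATF4 and amino acid response list 9 of 58 genes could be named. Beyond the 5 genes, Ndrg1 fell in ATG5KO by 0.65 (SE 0.111, adjusted p = 0.000966) and Odc1 by 0.81 (SE 0.103, adjusted p = 0.000182) on the log2 scale, in edgeR with Benjamini-Hochberg adjustment. Gpt2, an alanine transaminase, stood at a log2 fold change of 0.06 and Lurap1l at -0.39, with adjusted p of 0.764 and 0.0602. Their log2 fold changes in VAMP7KO, which chose them, were -0.72, 0.91, 0.77 and -1.12 in this order. In the edgeR interaction test for VAMP7KO, Gpt2 (-0.47, adjusted p = 0.00872), Ndrg1 (-0.58, adjusted p = 0.000893) and Odc1 (-0.33, adjusted p = 0.0412) were negative and Lurap1l was positive (0.76, adjusted p = 0.00955). The excess of Gpt2 and Odc1 was thus smaller in replicates 3 and 4, the deficit of Ndrg1 larger and that of Lurap1l smaller. The other lists were mixed in this test. Of 4 others chosen on VAMP7KO from the serine, glycine and one-carbon list, 1 was negative (Mtr), 2 were positive (Sardh and Aldh1l1) and 1 did not pass. On the leucine and mTORC1 list 3 of 3 did not pass, nor did the sensor gene Ern1. Igfbp4 and Igfbp6, for insulin-like growth factor binding proteins, were negative.

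On the serine, glycine and one-carbon list 9 of 40 genes could be named. Of 4 others chosen on VAMP7KO, Sardh, sarcosine dehydrogenase, rose in ATG5KO by 0.82 (SE 0.0897, adjusted p = 6.98e-05) and Aldh1l1, which oxidizes a folate-bound formyl group, by 1.41 (SE 0.412, adjusted p = 0.0181) on the log2 scale in edgeR with Benjamini-Hochberg adjustment. Mtr, methionine synthase, had -0.60 (adjusted p = 0.0542) and Gldc, of the glycine cleavage system, -0.08 (adjusted p = 0.862). In VAMP7KO these genes went different ways, with log2 fold changes of 1.04 for Sardh, -4.35 for Aldh1l1, 0.61 for Mtr and 1.56 for Gldc. The Aldh1l1 values depended on the set. In ATG5KO they were 0.615 in replicates 1 and 2 and 2.785 in replicates 3 and 4, and in VAMP7KO -5.332 and -2.118. Its WT libraries ran from 0.427 to 8.784 CPM, and VAMP7KO had at most 6 counts in a library. Amt and Mat1a had been chosen on ATG5KO, and their log2 fold changes in VAMP7KO were 0.24 and 0.80 (adjusted p = 0.149 and 0.146 in edgeR with Benjamini-Hochberg adjustment), where 22.9% of all genes passed.

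On the list of leucine sensing and mTORC1, 5 of 43 genes could be named. Sesn3, a sestrin like Sesn2, rose in ATG5KO by 0.41 (SE 0.121, adjusted p = 0.0189) and Rragd, a Rag GTPase that recruits mTORC1 to lysosomes, fell by 1.57 (SE 0.179, adjusted p = 8.98e-05) in edgeR with Benjamini-Hochberg adjustment. In VAMP7KO they had log2 fold changes of 0.98 and -0.73. Deptor, an mTOR inhibitor chosen on both knockouts, had 1.04 in VAMP7KO and 1.79 in ATG5KO. On the list of stanniocalcins, pappalysins and insulin-like growth factor binding proteins, Stc1 did not pass the filter, with at most 14 counts in a library. Igfbp4 had -1.13 in VAMP7KO and 1.52 in ATG5KO, and both chose it, and Igfbp6 had 0.91 in VAMP7KO and 0.20 in ATG5KO (edgeR adjusted p = 0.398). Of 17 sensors of unfolded proteins and eIF2α kinases and phosphatases only Ern1, the sensor IRE1, could be named, and it fell in ATG5KO by 0.44 (SE 0.0983, edgeR adjusted p = 0.00456). Of 23 genes for cytosolic aminoacyl-tRNA synthetases and their partners only Lars1 could be named.

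**Figure D5:**
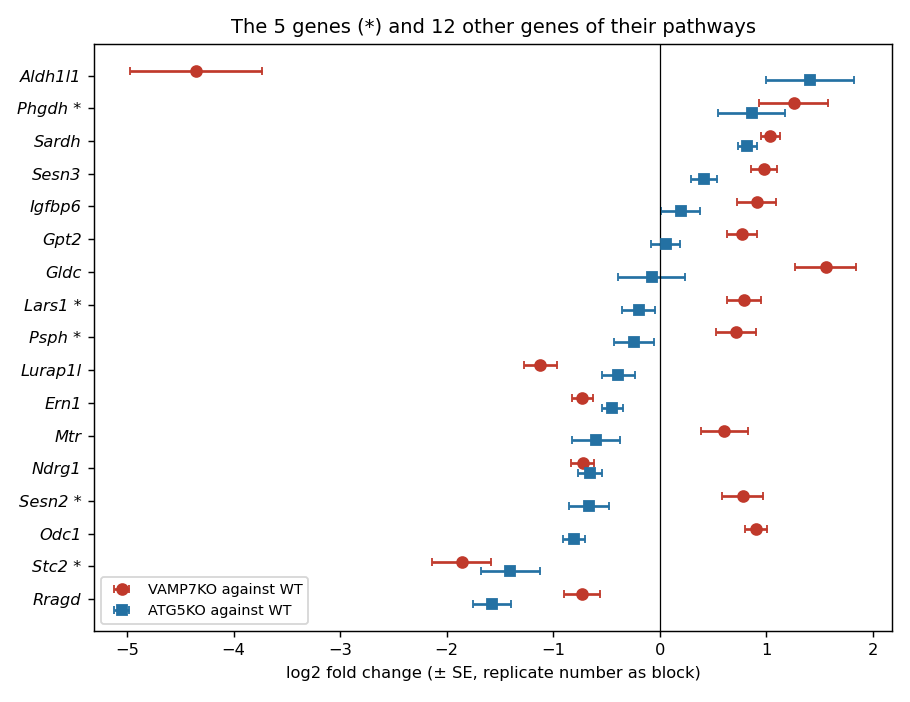
Log2 fold change ± SE against WT in VAMP7KO (circles) and ATG5KO (squares) of the 5 genes (asterisks) and 12 other pathway genes chosen on VAMP7KO, ordered by the ATG5KO value. Rragd and Stc2 are at the low end and Aldh1l1, at 1.41 in ATG5KO and -4.35 in VAMP7KO, at the high end. The values are fitted over both replicate sets, and for Aldh1l1 in ATG5KO the sets stood at 0.615 and 2.785.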

How the data were processed

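The authors trimmed reads with cutadapt, removed rRNA reads with bowtie, mapped the rest to the rat genome with STAR, counted them per Ensembl gene with htseq-count and deposited the counts without normalization. A separator missing from the table's header was restored by position. Genes were tested with edgeR 4.0.16 (quasi-likelihood, TMM, filterByExpr by genotype, R 4.3.3, limma 3.58.1) on all 12 libraries and 13141 genes, with the replicate number as block, and p-values were adjusted over all of them by the Benjamini-Hochberg method (threshold 0.05). The block follows a batch term in the study's methods. Deviations of equally numbered libraries correlated with r of 0.562 to 0.681, and those of the other library of the same set with 0.529 to 0.677, so the numbers pair libraries no further than the set. The SE was the log2 fold change over the square root of F. Sets were compared by an edgeR interaction test on 6 groups of 2 libraries with no block. Tests were tried on simulated data. The 5 genes and all lists were chosen with earlier results of these data known. Named genes were the 5 genes, up to 12 tested genes of each list, the 3 most alike by r (log2 CPM, prior count 2), and Vamp7; 1 listed gene is not reported here. Symbols came from published lists of changed genes (1976 genes); the list for ATG5KO was read in part, so Stc2 and Rragd may be on it. Alternatives were DESeq2 1.42.0 (its size factors, its Wald test), other filters, blocks, genotypes, sets, summed sets, and each library left out. Other steps ran in matplotlib 3.10.9, numpy 2.4.6, pandas 2.3.3 and scipy 1.17.1 under Python 3.11.15.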

Additional observations from a re-analysis of the deposited data

Results flagged for a closer look

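Sesn2 in VAMP7KO had replicate 1, at 115.2 CPM, apart from the other 3 libraries, with a gap of 0.853 of the whole range. Chance gives such a gap in about 1 in 20 groups, and 15 groups of 4 were examined.

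The effect of VAMP7KO differed between the replicate sets by the interaction test, with log2 differences of -1.497 for Phgdh, -0.9335 for Psph, -1.039 for Sesn2, -0.7204 for Lars1 and -1.021 for Stc2. For ATG5KO the same test gave -1.453 for Stc2. Phgdh was higher in VAMP7KO than in ATG5KO in replicates 1 and 2 (log2 difference 1.193) and lower in replicates 3 and 4 (-0.5393), and this difference was not tested.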

How the results depend on the processing

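In the comparison of ATG5KO with WT, 3 of the 5 genes passed with the replicate number as block and 1 with no replicate block. On replicates 1 and 2 only 5 passed, on replicates 3 and 4 only 5, and with replicates summed within each set 0 passed in edgeR (2 at an unadjusted p under 0.05), in a fit with 2 sums a genotype. Leaving out 1 library gave 1 to 3 genes, with 1 without WT replicate 3, WT replicate 4 or ATG5KO replicate 2. The calls over all genes moved as well. They were 6081 with the replicate block, 3102 with none, 6335 and 8629 on the 2 sets and 2101 with summed sets. With 1 library left out they were 5057 to 6047. Nothing particular to the 5 genes is read from these counts. The block changed the calls of Phgdh and Sesn2 and no other. The DESeq2 Wald test lost Phgdh (adjusted p = 0.0519), and summing lost Stc2 (adjusted p = 0.0597). For the difference of the ATG5KO effect between sets, 1 gene passed, and 1 to 2 did with 1 library left out, the second being Phgdh (0.56, adjusted p = 0.0101) without ATG5KO replicate 2. The 5 genes passed for VAMP7KO in all 4 alternatives and with each of 12 libraries left out. In these tests of the sets a library left out leaves its group of 2 with 1, which is then assumed to vary like the other groups, also for the Phgdh call above. The sign changed for Phgdh in VAMP7KO against ATG5KO on replicates 3 and 4 only (-0.539). It also changed for the difference of the ATG5KO effect on Psph, at -0.00 in edgeR, which became 0.0239 with DESeq2 size factors, 0.0244 with the DESeq2 Wald test, 0.0346 with every gene, 0.0432 with the filter at 0.5 CPM, and -0.16 to 0.211 with 1 library left out. The cause of these changes was not tested. In VAMP7KO against WT, 4 genes were higher in every alternative.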
